A study of Mus musculus with 31 samples.

Results

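Expression of 40 genes of fatty acid oxidation was examined in kidneys of Pcy/CD1 mice, a model of polycystic kidney disease, by RNA-seq. The genes were taken from a list of named regulators, carriers and enzymes of the pathway, and each had to reach at least 10 read counts in at least 5 mice. All 40 of the 40 listed genes met this limit, out of 23509 genes in the count tables, and all 40 were among the 15185 genes that passed the filter on low counts and were tested. The 31 kidneys came from 3 groups: 12 Pcy/CD1 mice given PBS (the PBS group), 14 Pcy/CD1 mice given RGLS4326, and 5 untreated male CD1 mice without the pcy allele (WT). RGLS4326 is a chemically modified oligonucleotide that inhibits miR-17. It was injected subcutaneously at 25 mg per kg each month for 25 weeks, starting at 5 weeks of age. PBS was given weekly by its sample labels and by the description of the study, although the treatment text gives a monthly schedule for both groups. Drug and injection frequency therefore differ together and cannot be told apart. All mice of the PBS and RGLS4326 groups are labelled Pcy/CD1, a genotype the count tables do not show directly. WT mice were age-matched, and kidneys of all 3 groups were harvested at 30 weeks of age. WT mice were not injected, so the allele and the injections cannot be told apart in comparisons with them.

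Fatty acids enter the cell through carriers such as Cd36 and the Slc27a transporters, are activated to acyl-CoA, and cross into the mitochondrion on carnitine, where a repeating cycle of 4 reactions shortens them and passes electrons to the respiratory chain. Peroxisomes run a related cycle for very long and branched chains. The proximal tubule of the kidney draws most of its energy from this pathway, and the nuclear receptor PPARα (Ppara), with its coactivator PGC-1α (Ppargc1a) and the estrogen-related receptor ERRα (Esrra), switches many of the genes on.

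Between 14892524 and 27459962 reads were counted on genes per mouse. All 31 mice carried reads of 4 Y-linked genes and had at most 0.300 CPM of Xist, where CPM is the count of a gene per 1000000 reads on genes, scaled by TMM. Proximal tubule markers were high in every group, with a summed level of 25120 to 28000 CPM over 13 genes in WT, 7239 to 14250 CPM with PBS and 9691 to 25310 CPM with RGLS4326. RGLS4326 replicate 9 stood apart from the other treated mice: on the first principal component, which held 60.4% of the variance, it lay at -76.7, next to WT (-96.9 to -82.4), while the other Pcy/CD1 mice lay between -17.2 and 55.0. Its Lcn2 level, a tubular injury marker, was 2.76 CPM against 125.8 CPM or more in the other 13 treated mice and 0.944 to 11.2 CPM in WT. Its label as a Pcy/CD1 mouse could not be checked from the counts, so some results are also given without it, as stated where they occur. All other means, ranges and fold changes of the treated mice include it. WT replicates 3 and 4 were the most alike pair of any group, with a chi-square of 2.69 per gene over 11799 genes, which is above sampling noise, and both were kept. The numbering of the library names restarts within each group and forms 3 index series, which were used to compare mice within a series. The labels do not say what the series are. WT replicates 3 and 4 were the only WT mice of series 2.

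The miR-17 seed family was examined first because RGLS4326 is directed against it. Bases 2 to 8 of these miRNAs pair with target mRNAs. Mature miR-20b-5p, miR-106a-5p and miR-6383 share those bases with miR-17 but are not printed. The following mature sequences (RefSeq, GRCm38.p6) also share bases 2 to 8, shown in capitals.
mmu-miR-17-5p: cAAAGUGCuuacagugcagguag
mmu-miR-20a-5p: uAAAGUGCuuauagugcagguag
mmu-miR-93-5p: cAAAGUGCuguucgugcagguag
mmu-miR-106b-5p: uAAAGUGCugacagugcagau

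A match to this seed (GCACTTT, with or without a following A) was found in the longest annotated 3′ UTR of 6 of 40 members (15%), against 14% of the 13832 tested genes that have an annotated 3′ UTR. The median 3′ UTR of the members was 674 bases long, against 1145 bases over all those genes. Sites are shown because they are where miR-17 could pair with a member's mRNA. Each lies in the last exon, and the capitals mark the match.
Ppara: aaaactaatctGCACTTTttaacctttga
Cd36: aataaaatcttGCACTTTtattaaaagtc
Decr1: actataatcttGCACTTTtgagaaccaaa
Acaa1a: ggtgtgtcacaGCACTTTActttagaaaac
Acaa1b: ggtgtgtcacaGCACTTTAatttagaaaat
Pdk4: aaggaatcaaaGCACTTTAtcgagcttgtg

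In GRCm38 coordinates the matches lie at chr15:85801668-85801674 on the plus strand (Ppara, exon 8 of 8), chr5:17783084-17783090 on the minus strand (Cd36, exon 15 of 15), chr4:15917721-15917727 on the minus strand (Decr1, exon 10 of 10), chr9:119350142-119350149 on the plus strand (Acaa1a, exon 12 of 12), chr9:119148222-119148229 on the minus strand (Acaa1b, exon 12 of 12) and chr6:5484939-5484946 on the minus strand (Pdk4, exon 11 of 11). The paralogs Acaa1a and Acaa1b carry theirs at the same place, 109 bases into the 3′ UTR, in nearly the same surrounding sequence. A seed match is a run of letters and was not tested as a binding site.

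PPARα binds direct repeats of AGGTCA spaced by 1 base. Promoters of 35 of the 40 members were in the reference table, each running from 250 bases before to 50 bases after a transcription start. With up to 3 mismatches allowed on either strand, 12 of 35 members (34.3%) held such a repeat, against 24.9% of tested genes with a promoter and 24.6% of all 32851 promoters. With up to 2 mismatches the counts were 6 of 35 (17.1%), against 3.82% of tested genes and 3.86% of promoters. The ERRα motif TNAAGGTCA, which shares the letters AGGTCA with the repeat, was found without mismatch in 0 of 35 members and in 1.01% of tested genes (1.28% of promoters). The closest repeats follow with 8 bases on each side; capitals mark the repeat, and the letters are read along the gene's strand.
Fabp1: acaatcacTGACCTATGGCCTatatctga
Cd36: tggttctcTGGCCTCTGACTTacttggat
Etfa: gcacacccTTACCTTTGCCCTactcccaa
Echs1: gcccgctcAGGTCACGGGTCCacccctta
Acox2: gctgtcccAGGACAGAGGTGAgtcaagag
Slc25a20: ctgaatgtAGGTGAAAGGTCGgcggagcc

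The best match, with 1 mismatch, began 67 bases before the start of Fabp1 (printed window chr6:71199804-71199832, plus strand), on the strand opposite to the gene, as did the repeats of Cd36 and Etfa. The other matches have 2 mismatches, and the printed windows around them lie at chr5:17835939-17835967 (Cd36), chr9:55512300-55512328 (Etfa), chr7:140116484-140116512 (Echs1), chr14:8258810-8258838 (Acox2), all on the minus strand, and chr9:108662134-108662162 (Slc25a20, plus strand). These letters describe the promoters and say nothing of binding in these kidneys.

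In WT kidneys the members spanned a wide range of levels. Divided by exon length, the highest mean levels were those of Slc27a2, an acyl-CoA synthetase of very long chains (1658 CPM per kb), and Acsm2, a medium-chain acyl-CoA synthetase (1206 CPM per kb). Etfb, Acat1 and Acadm followed at 381.5, 369 and 342 CPM per kb. The lowest were Pdk4 (4.94 CPM per kb), Acot2 (7.92 CPM per kb) and Fabp1 (8.32 CPM per kb). Per-length levels use all annotated exons of a gene, so genes with unused exons are understated.

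The first comparison asked how the pathway differs between cystic and healthy kidneys. With PBS, 34 of 40 members were lower than in WT and 0 were higher at an adjusted p under 0.05, which is what "called" means here. Over all 15185 genes tested, 36.6% were called lower and 37.7% higher. No member rose at an unadjusted p under 0.05 or by DESeq2 either. Among the 34, 23 fell by more than 0.5 on the log2 scale, while 17.8% of all genes tested were called lower by that much. The median log2 fold change of the members was -0.59, against 0.01 over all genes tested. The counts were 26 within index series 1 and 29 within index series 2, where 25.6% and 22.1% of all genes were called lower. The calls of Ppargc1a, Fabp1, Hadha, Etfb and Acaa1b were lost in both, while series 3 held 1 WT mouse and gave no such comparison.

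All 13 proximal tubule markers were called lower in the same comparison, with a median log2 fold change of -1.25, as were 3 of 4 distal convoluted tubule markers (median -0.91). Of 4 hepatocyte markers 3 were called lower (median -1.63). Markers of collecting duct principal cells (5 of 5) and fibroblasts (6 of 6) were called higher, and the 5 macrophage markers found of 6 listed summed to 162 to 173 CPM in WT and 334 to 602 CPM with PBS. In whole kidney, fewer proximal tubule cells and less RNA of a gene per cell cannot be told apart, and the part of these shifts in the members' fall was not tested.

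**Figure D1:**
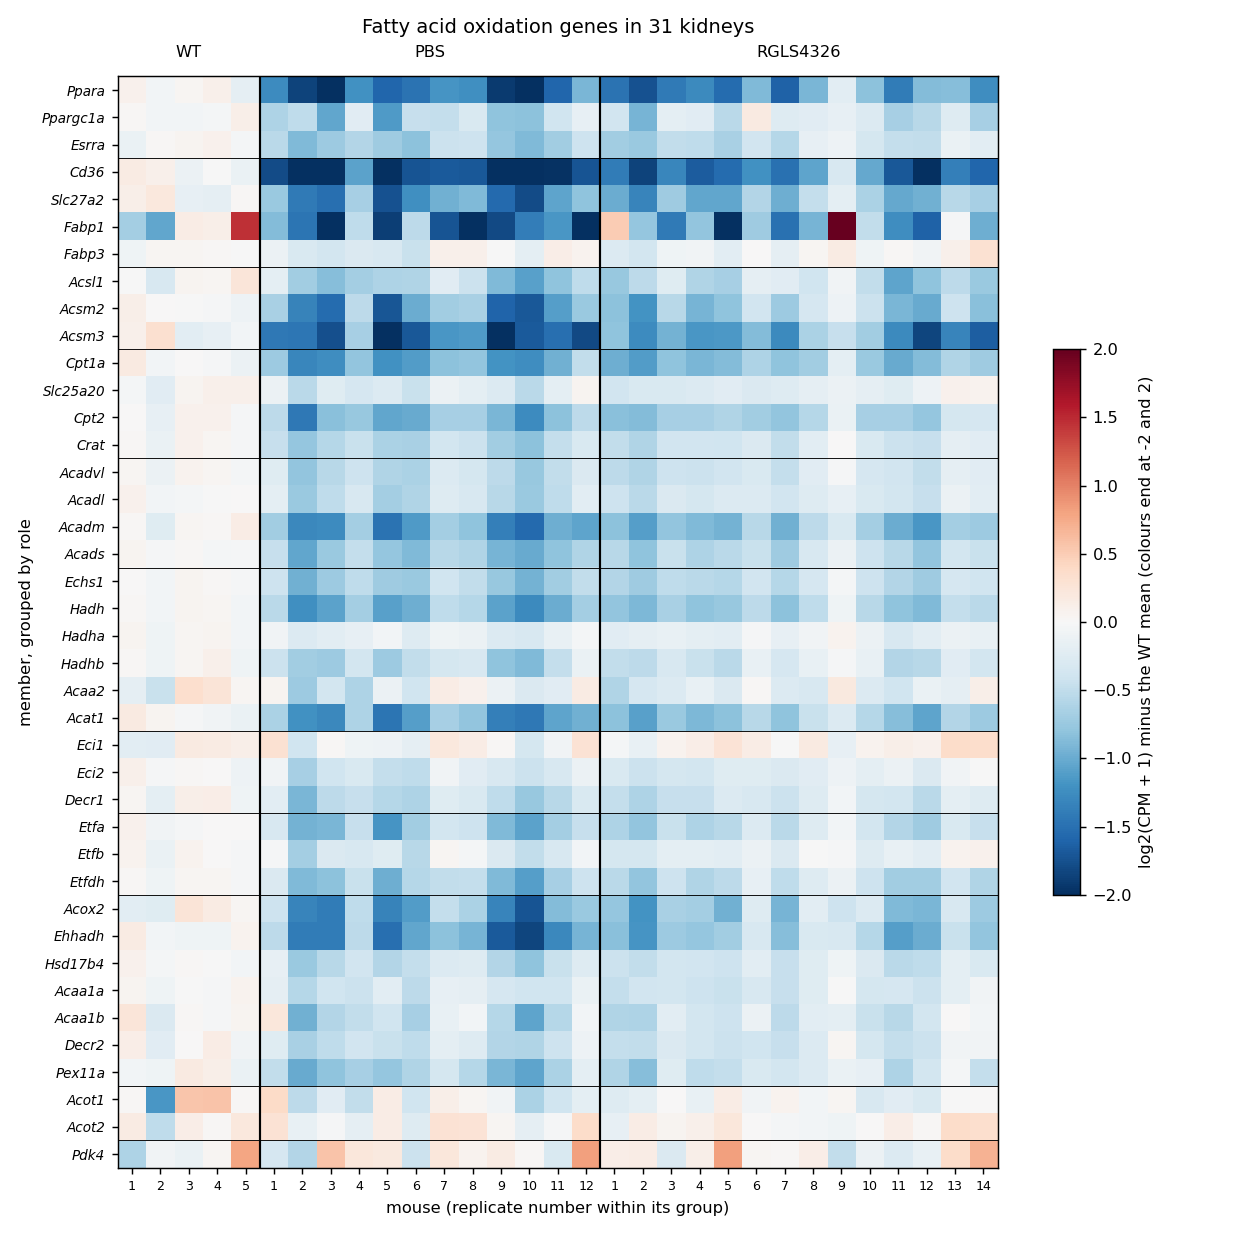
Level of each member (rows, grouped by role, with thin lines between roles) in each of the 31 mice (columns), as log2(CPM + 1) minus the mean of the 5 WT mice, with blue below and red above. Most rows are blue in the 12 PBS mice and paler in the 14 RGLS4326 mice, RGLS4326 replicate 9 is close to WT, and the rows of Eci1, Acot2 and Pdk4 hold both colours in every group.

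All 3 regulators fell. Ppara, the nuclear receptor, was measured at 220.2, 200.3, 214, 224 and 182 CPM in the WT mice. With PBS it ranged from 47.4 to 109.6 CPM with a median of 71.2, and with RGLS4326 from 61.1 to 179 CPM with a median of 86.2. Every PBS and every RGLS4326 mouse lay below the lowest WT mouse. From WT to PBS the mean went from 208 ± 17 (SD, n = 5) to 73.4 ± 19.6 CPM (n = 12), a 2.83-fold fall (log2 fold change -1.50 ± 0.18 SE, edgeR adjusted p = 4.7e-08). Esrra, at 159 to 186 CPM in WT and 94.2 to 131 CPM with PBS, fell by 0.65 ± 0.09 (edgeR adjusted p = 4.8e-07). Ppargc1a, at 79.7 to 89.9 CPM in WT and 37.4 to 74.2 CPM with PBS, fell by 0.56 ± 0.14 (edgeR adjusted p = 5.3e-04). For both, the WT and PBS ranges did not overlap. The Ppargc1a call was lost within index series 1 and within index series 2 (edgeR adjusted p = 0.0526 and 0.0704).

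The carriers included Cd36 and Fabp1, the members with the largest fitted falls. Cd36, a receptor that takes up long-chain fatty acids, was at 895, 854, 730.0, 786 and 722 CPM in WT. It ranged from 103 to 378 CPM with PBS (median 215) and from 195 to 634 CPM with RGLS4326 (median 291), so no mouse of either group reached the WT range. It was 3.89-fold lower with PBS (log2 fold change -1.96 ± 0.22, edgeR adjusted p = 1.2e-08). Slc27a2, which both imports and activates fatty acids, fell by 1.16 ± 0.16 from a mean of 6224 to 2796 CPM. Fabp3, a cytosolic fatty acid carrier best known from heart, was not called (log2 fold change -0.12 ± 0.09).

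Fabp1, the liver-type fatty acid carrier, was a sparse gene in these kidneys and needs separate reading. It was at 1.89, 1.25, 4.14, 4.0 and 11.7 CPM in WT, at 0 to 2.24 CPM with PBS (median 0.537) and at 0 to 39.6 CPM with RGLS4326 (median 1.55). It reached 10 counts in 24 of 31 mice and was listed at 0 in 2. The fitted fall from WT to PBS was 2.51 ± 0.88 on the log2 scale (edgeR adjusted p = 0.012), and without WT replicate 5 it was 1.81 with the call lost (adjusted p = 0.0968). In WT and RGLS4326 mice the mouse highest in Fabp1 was also highest in the hepatocyte marker Alb. WT replicate 5 held 178 CPM of Alb and RGLS4326 replicate 9 held 329.6 CPM, each the most of its group. Among PBS mice replicate 4 was highest in Fabp1 (2.24 CPM) and replicate 6 in Alb (49.1 CPM). Each was next highest in the other gene, with 46.3 CPM of Alb in replicate 4 and 2.21 CPM of Fabp1 in replicate 6. Summed hepatocyte markers (Alb, Apoa2, Ttr, Serpina1a) ranged from 21.7 to 226 CPM in WT, 8.77 to 64.7 CPM with PBS and 8.45 to 430.3 CPM with RGLS4326. In WT replicates 3 and 4 most of the sum was Ttr, at 161 and 162 CPM. The part of these transcripts in the Fabp1 values was not tested.

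All 3 activating enzymes fell. Acsm3, a medium-chain acyl-CoA synthetase, was at 1683, 1940, 1355, 1395 and 1506 CPM in WT, 353 to 986 CPM with PBS (median 517) and 438 to 1139 CPM with RGLS4326 (median 701). WT did not overlap with either Pcy/CD1 group. The log2 fold change with PBS was -1.50 ± 0.18 (edgeR adjusted p = 4.7e-08). Acsm2 fell by 1.04 ± 0.18, and its value is uncertain where reads also fit related Acsm genes. Acsl1, the main long-chain acyl-CoA synthetase, fell by 0.63 ± 0.13.

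All 4 genes of the carnitine shuttle fell. Cpt1a, which commits long-chain fatty acids to the mitochondrion, was at 765, 650.5, 677, 664 and 625 CPM in WT, at 272 to 479 CPM with PBS (median 329) and at 309 to 589 CPM with RGLS4326 (median 384). No mouse of the Pcy/CD1 groups reached the WT range. The fall with PBS was 0.97 ± 0.12 (edgeR adjusted p = 3.1e-08). Crat, the carnitine acetyltransferase that buffers acetyl-CoA, was at 246 to 286 CPM in WT and 152 to 217 CPM with PBS, and it fell by 0.55 ± 0.08 (edgeR adjusted p = 4.2e-07). Slc25a20, the carnitine-acylcarnitine translocase, had the smallest fall of the shuttle at 0.27 ± 0.08.

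The 4 mitochondrial acyl-CoA dehydrogenases, which open the cycle on chains of different length, all fell. Acadm, the medium-chain enzyme, was at 1351, 1122, 1372, 1359 and 1479 CPM in WT, 454 to 829.9 CPM with PBS (median 623) and 592 to 1074 CPM with RGLS4326 (median 764). Again WT stood clear of both other groups. It fell by 1.06 ± 0.13 with PBS (edgeR adjusted p = 4.6e-08). The short-chain enzyme Acads, at 344 to 369 CPM in WT and 172 to 255 CPM with PBS, fell by 0.73 ± 0.09 (edgeR adjusted p = 5.9e-08). Acadvl and Acadl, for very long and long chains, fell by 0.49 ± 0.08 and 0.46 ± 0.08.

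The later steps were uneven. Acat1, which splits and joins acetoacetyl-CoA, was at 1260 to 1567 CPM in WT and 499 to 896 CPM with PBS, and fell by 1.02 ± 0.13 (edgeR adjusted p = 5.4e-08). Hadh fell by 0.87 ± 0.12 and Echs1 by 0.65 ± 0.09. Hadha and Hadhb encode the 2 subunits of the mitochondrial trifunctional protein, and their genes lie head to head on chromosome 5 with 86 bases between them. Hadhb fell by 0.52 ± 0.10 and Hadha by 0.17 ± 0.05, and this difference between the partners was not itself tested. The Hadha call was lost within index series 1 and 2 alone. Acaa2, the last thiolase of the cycle, was not called (log2 fold change -0.21 ± 0.13), although without WT replicate 2 its edgeR adjusted p was 0.0494.

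Of the enzymes for unsaturated chains 2 of 3 fell, and all 3 genes of electron transfer fell. Decr1, the mitochondrial dienoyl-CoA reductase, was at 252 to 318 CPM in WT and 154 to 249 CPM with PBS, and fell by 0.49 ± 0.09 (edgeR adjusted p = 1.3e-05). Eci1, an enoyl-CoA isomerase, was at 129 ± 17.9 CPM in WT and 128 ± 20.3 CPM with PBS and was not called (log2 fold change -0.01 ± 0.10), while Eci2 fell by 0.32 ± 0.07. Etfdh, which passes the electrons on to ubiquinone, was at 242 to 266 CPM in WT and 119 to 209 CPM with PBS, and fell by 0.65 ± 0.11 (edgeR adjusted p = 3.3e-06). Etfa, at 428 to 478 CPM in WT and 199 to 362 CPM with PBS, fell by 0.68 ± 0.12 (edgeR adjusted p = 6.2e-06). Etfb, the partner subunit of the same electron carrier, fell by 0.26 ± 0.09, with the call lost within index series 1 and 2 alone (edgeR adjusted p = 0.143 and 0.262).

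All 7 peroxisomal genes fell. Ehhadh, the bifunctional enzyme of the peroxisomal cycle, was at 1005, 860.0, 838, 842 and 934 CPM in WT, 249 to 622 CPM with PBS (median 399) and 395 to 719 CPM with RGLS4326 (median 532). The WT range was above both. It fell by 1.10 ± 0.16 with PBS (edgeR adjusted p = 7.0e-07). The bile acid and branched-chain oxidase Acox2 fell by 0.96 ± 0.17, and Pex11a, which divides peroxisomes, by 0.68 ± 0.12. Hsd17b4, Decr2, Acaa1a and Acaa1b fell by 0.32 to 0.45 on the log2 scale, and the values of the near-identical thiolases Acaa1a and Acaa1b are uncertain because reads that fit both would not have been counted. The Acaa1b call was lost without WT replicate 1 (edgeR adjusted p = 0.0514).

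The thioesterases and Pdk4 were not called. Acot1, a cytosolic thioesterase, was at 52.0, 22.2, 75.2, 76.0 and 52.1 CPM in WT and 32.8 to 66.6 CPM with PBS (log2 fold change -0.28 ± 0.17, edgeR adjusted p = 0.13). Its WT mice spread widely, and without WT replicate 2 the fall became 0.48 with an edgeR adjusted p of 0.0026. Acot2, its mitochondrial neighbour on chromosome 12, was at 17.4 ± 3.31 CPM in WT and 17.9 ± 2.88 CPM with PBS. Both values are uncertain because the pair is nearly identical in sequence. Pdk4, a kinase that turns off glucose oxidation when fat is burnt, was at 10.4, 15.6, 14.8, 16.8 and 29.0 CPM in WT and 10.6 to 29.8 CPM with PBS, and the groups overlapped (log2 fold change 0.04 ± 0.22, edgeR adjusted p = 0.88).

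**Figure D2:**
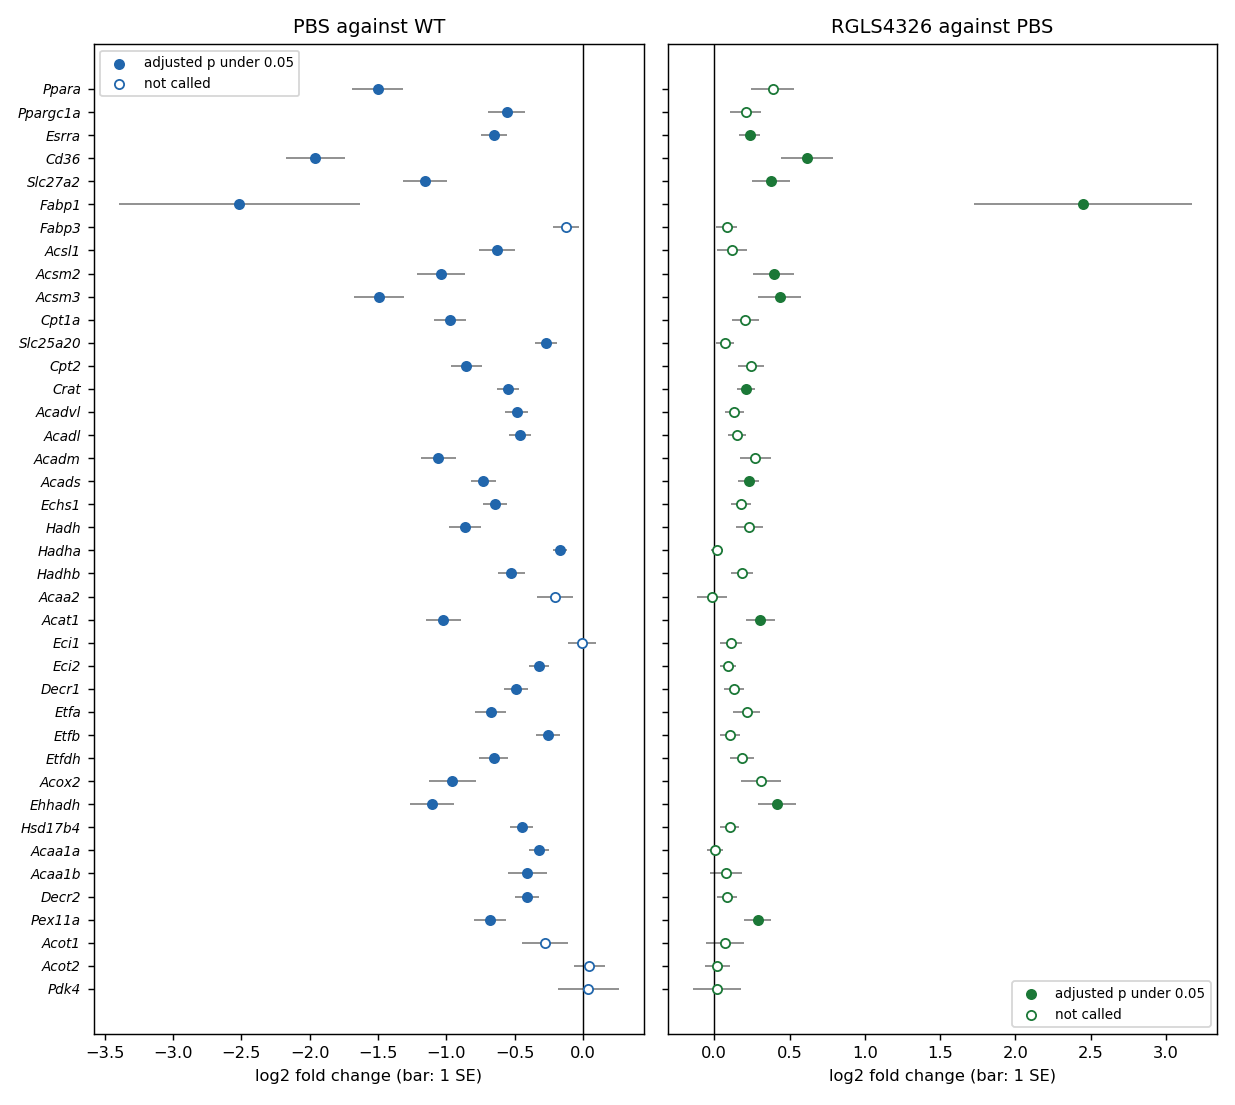
Log2 fold change of each member with its SE, for PBS against WT on the left and RGLS4326 against PBS on the right (the axes differ in range), with filled points for an adjusted p under 0.05. On the left 34 filled points lie below 0 and none above; on the right 11 filled points lie above 0 and none below, with Fabp1 at 2.45 and the widest error.

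The second comparison asked whether RGLS4326 changed these genes in cystic kidneys. With RGLS4326, 11 of 40 members were called higher than with PBS and 0 lower, against 9.15% of all genes called higher and 6.66% called lower. No member fell at an unadjusted p under 0.05 or by DESeq2. The changes were small: 2 of the 11, Cd36 and Fabp1, exceeded 0.5 on the log2 scale, while 0.935% of all genes tested were called higher by that much. The median of the 40 members was 0.18, against -0.004 over all genes tested. By DESeq2 16 members were called higher, against 12.4% of all genes, and with WT left out of the edgeR fit 6 were, against 5.25%.

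The 11 members lie in several roles: Esrra, Cd36, Slc27a2, Fabp1, Acsm2, Acsm3, Crat, Acads, Acat1, Ehhadh and Pex11a. All 11 had been called lower with PBS than in WT, and both comparisons share the PBS mice. Proximal tubule markers moved in the same direction, with 4 of 13 called higher, 0 lower and a median log2 fold change of 0.38, and 2 of 4 distal convoluted tubule markers were called higher. Collecting duct principal cell markers moved the opposite way, with 4 of 5 called lower. Of the 4 hepatocyte markers 2 were called higher and 0 lower, with a median of 1.47. RGLS4326 replicate 9, with the largest hepatocyte sum at 430.3 CPM, is included there. The part of these shifts in the members' rise was not tested.

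Cd36 rose most among the well-expressed members. Its mean went from 205 ± 75.8 CPM with PBS to 314 ± 108 CPM with RGLS4326, 1.53-fold (log2 fold change 0.62 ± 0.17, edgeR adjusted p = 0.023). The ranges overlapped, and 13 of 14 treated mice lay above the PBS median. Acsm3 rose by 0.43 ± 0.14, Ehhadh by 0.42 ± 0.13, Acsm2 by 0.39 ± 0.14 and Slc27a2 by 0.37 ± 0.13 (edgeR adjusted p from 0.030 to 0.047). The smaller rises were those of Acat1 (0.31 ± 0.10, adjusted p = 0.037), Pex11a (0.29 ± 0.09, adjusted p = 0.033), Esrra (0.23 ± 0.07, adjusted p = 0.031), Acads (0.23 ± 0.07, adjusted p = 0.031) and Crat (0.21 ± 0.06, adjusted p = 0.026). With RGLS4326 the ranges were 104 to 163 CPM for Esrra, 201 to 327 CPM for Acads, 178 to 270.2 CPM for Crat and 650 to 1146 CPM for Acat1. For each of these members the treated and PBS ranges overlapped.

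The fitted rise of Fabp1, 2.45 ± 0.73 on the log2 scale (edgeR adjusted p = 0.029), rested on RGLS4326 replicate 9. Without that mouse the treated mean was 1.71 ± 1.46 CPM (n = 13) against 4.41 ± 10.2 CPM with it, and the log2 fold change was 1.09 with the call lost (adjusted p = 0.15).

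The other members named above were not called with treatment. Ppara had a log2 fold change of 0.39 ± 0.14 (edgeR adjusted p = 0.059; 96.1 ± 30.8 CPM with RGLS4326), and 11 of 14 treated mice lay above the PBS median. Acadm had 0.27 ± 0.10 (adjusted p = 0.056), Cpt1a 0.21 ± 0.09 (adjusted p = 0.096), Ppargc1a 0.21 ± 0.10 (adjusted p = 0.14), Etfa 0.22 ± 0.09, Etfdh 0.18 ± 0.08 and Decr1 0.13 ± 0.07. Etfa, Etfdh and Decr1 ranged from 261 to 433 CPM, 148 to 237 CPM and 188 to 278 CPM in treated mice, and Ppargc1a from 43.0 to 94.1 CPM. Acot1 ranged from 40.5 to 56.6 CPM and Pdk4 from 11.4 to 29.6 CPM. The log2 fold changes of Pdk4, Acot1 and Acaa1a were 0.02 ± 0.16, 0.07 ± 0.13 and 0.01 ± 0.05. Of the 6 members with a miR-17 seed match, Cd36 was called higher and Ppara, Decr1, Acaa1a, Acaa1b and Pdk4 were not, with log2 fold changes from 0.01 to 0.39.

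The count of 11 depended on single mice, and the share of all genes called higher moved with it. Without RGLS4326 replicate 9 it was 2 (Cd36 and Crat), with 4.66% of all genes called higher. It fell to 0 without PBS replicate 10, where 19 members were higher at an unadjusted p under 0.05 and 2.43% of all genes were called higher, to 1 without PBS replicate 9, to 2 without PBS replicate 3 or 5, to 3 without PBS replicate 2 or RGLS4326 replicate 8 or 13, to 5 without RGLS4326 replicate 6, to 6 without RGLS4326 replicate 3 or 10, and to 7 without PBS replicate 11. It rose to 17 without PBS replicate 4, to 18 without PBS replicate 7 or 12 or RGLS4326 replicate 2, and to 19 without PBS replicate 1, where the share of all genes was 11.5%. The share of all genes called higher was 3.01 to 6.2% in the fits that left 1 to 7 members and 11.3 to 14.5% in those that left 17 to 19. Of the 31 mice left out in turn, 1 ended the call of Cd36 (log2 fold change 0.50 to 0.73) and 2 that of Crat. From 5 (Fabp1) to 19 (Acsm2) did so for the other 9 called members.

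Within each index series alone, 0 members and 0 of all genes were called in either direction between RGLS4326 and PBS. The median log2 fold change of the members was 0.04 in series 1, where 0 members had an unadjusted p under 0.05, 0.23 in series 2 (13 members) and 0.21 in series 3 (16 members). With index series as a term in the fit of all mice, 9 members and 8.32% of all genes were called higher.

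**Figure D3:**
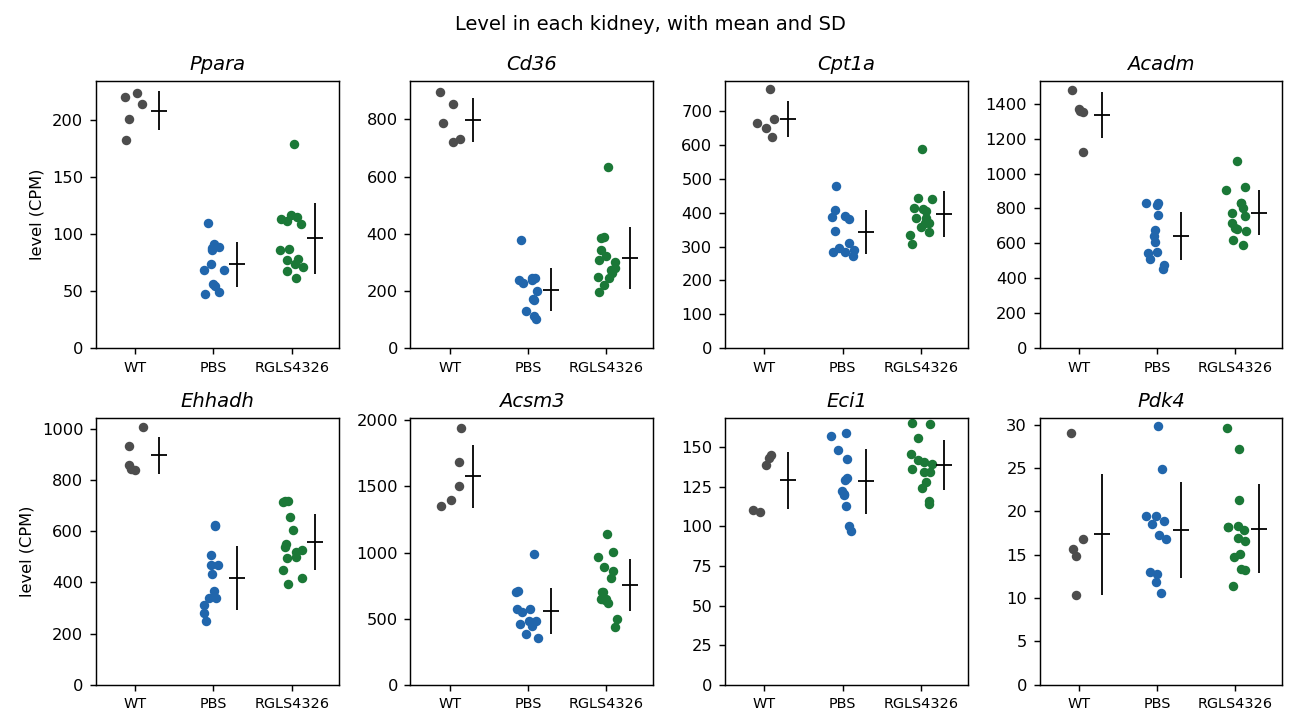
Level in CPM of 8 members in each mouse by group, 1 point per kidney, with the mean and SD beside the points and axes starting at 0. For Ppara, Cd36, Cpt1a, Acadm, Ehhadh and Acsm3 the 5 WT mice lie above every PBS and RGLS4326 mouse, and the RGLS4326 points overlap the PBS points; Eci1 and Pdk4 overlap in all 3 groups.

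The third comparison asked how far treated kidneys remained from WT. With RGLS4326, 32 of 40 members were still called lower than in WT and 0 higher, against 32.4% of all genes lower and 32.5% higher; no member was higher at an unadjusted p under 0.05 or by DESeq2. Those lower by more than 0.5 on the log2 scale numbered 14, against 11.3% of all genes. The members' median log2 fold change was -0.36, and that of the PBS group, which shares the same WT mice, was -0.59. Of the markers, 12 of 13 of the proximal tubule were called lower (median -0.89), while 5 of 5 of collecting duct principal cells, 6 of 6 of fibroblasts and 3 of 5 of adipocytes were called higher, and their part in the result was not tested. Cd36 (-1.34 ± 0.21), Ppara (-1.12 ± 0.18) and Acsm3 (-1.06 ± 0.18) were farthest below WT (edgeR adjusted p = 4.8e-06, 6.8e-06 and 1.2e-05). Cpt1a (-0.77 ± 0.11), Acadm (-0.78 ± 0.13), Ehhadh (-0.69 ± 0.16), Acat1 (-0.72 ± 0.12), Acads (-0.50 ± 0.09) and Etfdh (-0.47 ± 0.10) also lay wholly below the WT range in all 14 treated mice. Esrra (-0.42 ± 0.09), Etfa (-0.46 ± 0.11), Decr1 (-0.36 ± 0.09), Ppargc1a (-0.35 ± 0.13) and Crat (-0.34 ± 0.08) were called lower with ranges that overlapped WT. The 8 members not called were Fabp1, Fabp3, Acaa2, Eci1, Etfb, Acot1, Acot2 and Pdk4. Fabp1 had a log2 fold change of -0.06 ± 0.84, which ranged from -1.42 to 0.65 with each mouse left out in turn. Without RGLS4326 replicate 9 its treated mean was 1.71 ± 1.46 CPM, against 4.60 ± 4.19 CPM in WT. Within index series 2 alone, 1 member and 0.632% of all genes were called lower, with 22 members at an unadjusted p under 0.05. Within series 1, 26 members and 23.5% of all genes were called lower.

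RGLS4326 replicate 9 had the highest level of the 14 treated mice for 26 of the 40 members and lay within the WT range for 21. Its Cd36 level was 634 CPM, against 195 to 389 CPM in the other 13 treated mice and 722 CPM in the lowest WT mouse. Its Cpt1a level was 589 CPM, against 309 to 444 CPM in the others. It was not the highest for Ehhadh (718 CPM, with another treated mouse at 719 CPM), and it was the lowest of the 14 for Pdk4 (11.4 CPM) and Eci1 (114 CPM).

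The relation of the members to a tubular injury marker was examined among mice of the same group. Lcn2, which encodes the injury marker NGAL, ranged from 0.944 to 11.2 CPM in WT, from 205 to 1205 CPM with PBS and from 126 to 607 CPM in RGLS4326 mice other than replicate 9. Correlations of each member with Lcn2 were computed on log2(CPM + 1) within the PBS mice and within the RGLS4326 mice, 80 relations in all, with two-sided permutation tests adjusted over 15184 genes in each group. In PBS mice 23 of 40 members fell as Lcn2 rose and 0 rose with it, against 20.1% of all genes falling and 20.5% rising. In RGLS4326 mice the counts were 28 and 0, against 18.3% and 19.3%. Because replicate 9 lies far from the other treated mice in Lcn2, the count was also taken without it and was 21, against 12% of all genes falling. Single index series hold 4 or 5 mice of a group, and no correlation was computed within one. With values centred on the series 26 members fell with Lcn2 in PBS mice and 27 in RGLS4326 mice, against 23.3% and 18.4% of all genes. The permutations of centred values were not restricted to a series.

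In the 12 PBS mice the closest relations were those of Ehhadh (Pearson's r = -0.96, Spearman's rho = -0.98), Acsm2 (r = -0.96, rho = -0.99), Acat1 (r = -0.96, rho = -0.99) and Slc27a2 (r = -0.96, rho = -0.96). Each of these had the smallest p that 100000 permutations can give (1e-05) for both measures, and an adjusted permutation p of 4.2e-04 for r. Without PBS replicates 10 and 5, the mice farthest from the Lcn2 median, r was -0.96 for Ehhadh, -0.94 for Acsm2, -0.94 for Acat1 and -0.92 for Slc27a2. Cpt1a (r = -0.75, permutation p = 0.0062, adjusted 0.021; rho = -0.82, permutation p = 0.0019) and Ppara (r = -0.77, permutation p = 0.0042, adjusted 0.016; rho = -0.80, permutation p = 0.0031) followed the same direction, with r of -0.70 and -0.79 without those mice. Pdk4 (r = 0.15, permutation p = 0.65; rho = -0.10, permutation p = 0.75), Acaa2 (r = -0.10, permutation p = 0.76; rho = -0.23, permutation p = 0.47) and Acaa1a (r = -0.15, permutation p = 0.63; rho = -0.23, permutation p = 0.47) did not pass the test.

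In RGLS4326 mice without replicates 9 and 13, the mice farthest from the Lcn2 median, r was negative for 37 of 40 members. It was -0.91 for Hadhb, -0.89 for Acox2, -0.86 for Slc27a2, -0.84 for Acsm2 and -0.79 for Cpt1a. Over all 14 mice the relation of Fabp1 passed the adjusted test (r = -0.85, permutation p = 0.0089, adjusted 0.028; rho = -0.56, permutation p = 0.041), and without those mice r was -0.19, so it rested on them. The members share libraries and tissue makeup with the proximal tubule markers, and whether they vary beyond those was not tested.

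**Figure D4:**
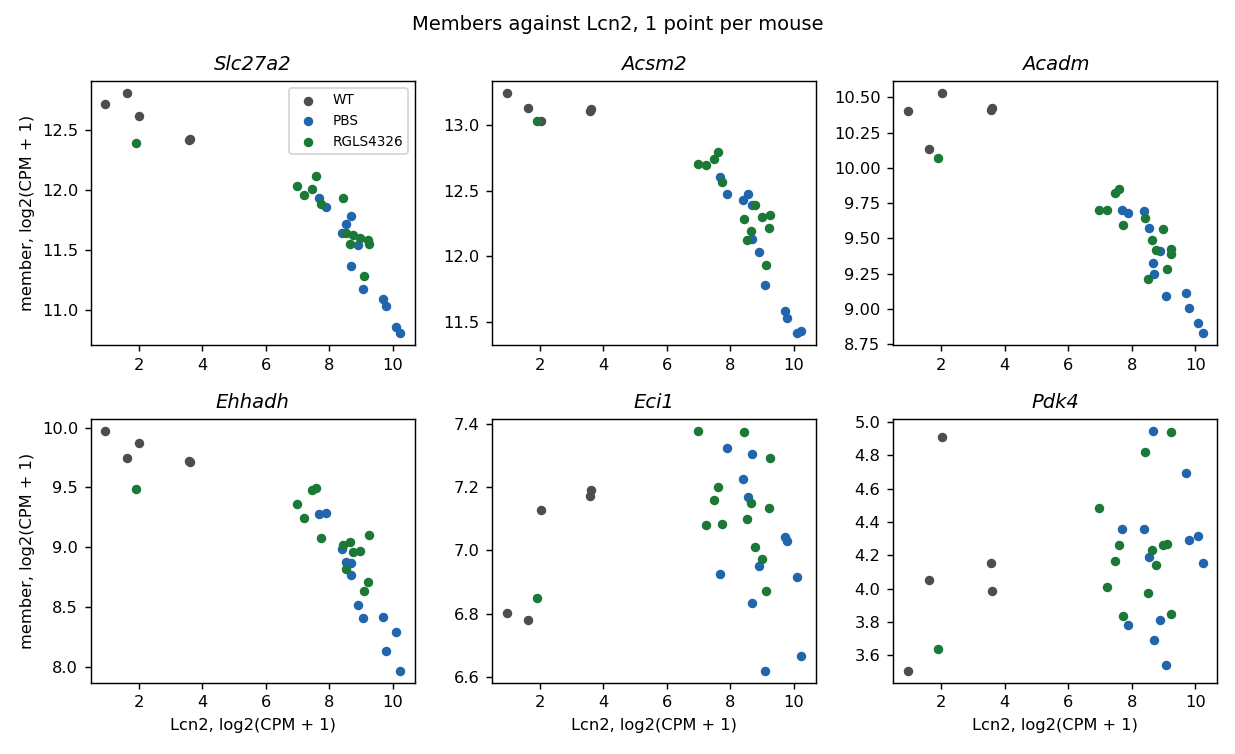
Log2(CPM + 1) of 6 members against that of Lcn2, 1 point per mouse, coloured by group. Slc27a2, Acsm2, Acadm and Ehhadh fall as Lcn2 rises among PBS and among RGLS4326 mice, with the RGLS4326 mouse at low Lcn2 being replicate 9, while in PBS mice Eci1 (r = -0.48) and Pdk4 (r = 0.15) did not pass the test.

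Among 67 other genes of PPARα signalling and lipid handling that are not members, 65 were tested. With PBS against WT, 44 were called lower and 9 higher, with a median log2 fold change of -0.51, against 36.6% and 37.7% of all genes and a median of 0.01. The falls included Crot, the peroxisomal carnitine transferase (-1.40), and Lpl, which frees fatty acids from circulating fat (-1.29). The rises included the ω-hydroxylase Cyp4a14 (1.69). Pparg, the adipogenic relative of Ppara, rose from 1.94 to 3.18 CPM (0.72). Summed adipocyte markers reached 2.29 CPM in WT and 28.5 CPM with PBS, with 0 of 5 called by edgeR and 0 at an unadjusted p under 0.05, and their part in the Pparg value was not tested. Acsl5, another acyl-CoA synthetase, rose by 0.88. With RGLS4326 against PBS, 10 of the 65 were called higher and 0 lower, against 9.15% and 6.66% of all genes, with 28 at an unadjusted p under 0.05 in either direction, and Crot rose by 0.37.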

How the data were processed

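Per the labels, polyA RNA of flash-frozen kidneys was prepared with a stranded mRNA kit. The authors deposited raw read counts per gene, 1 table per mouse, made per the submitters' processing notes with FastQC 0.11.2, Trim Galore, STAR, SAMtools 1.1, Picard 1.119 and HTSeq 0.6.1 on GRCm38 (mm10). Uniquely mapped reads were counted. The strand setting is not given in the sources used here. The 5 summary rows held 26.9 to 31.1% of each mouse's reads and were left out.

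Counts of all 31 mice were fitted with edgeR 4.0.16 in R 4.3.3 (filterByExpr, TMM, quasi-likelihood F test, 1 coefficient per group), with Benjamini-Hochberg adjustment over 15185 genes and a call at an adjusted p under 0.05. An approximate SE was taken as the size of the log2 fold change over the root of its F statistic. CPM used TMM-scaled library sizes. The fit was tested on simulated data. The labels number the mice within a group and do not name cages or litters. The p-values set group differences against the spread between these mice, each taken as independent, also WT replicates 3 and 4.

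Relations to Lcn2 used 100000 permutations (Python 3.11.15), adjusted over all genes in each group rather than over the members alone, a change made after seeing the data. The 3′ UTRs came from the GENCODE annotation of GRCm38, and promoters and miRNAs from RefSeq tables (GRCm38.p6).

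Members, pathway genes and marker lists were chosen with earlier results of these data known. Some items are not reported here. Full statistics are given for the regulators, Cpt1a and Acadm, for the member with the smallest p in each role and in each of the first 2 comparisons, for called members moving against the majority, and for the 3 largest changes per comparison. Alternatives were no filter, a filter at 1 CPM, DESeq2 size factors, DESeq2 1.42.0, fits of 2 groups only, index series as covariate or alone, replicate block, a size threshold of 0.5, and each mouse left out in turn.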

Additional observations from a re-analysis of the deposited data

Results flagged for a closer look

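Acot2 in WT replicate 2 lay far from the other mice of its group. It stood at 11.7 CPM, against 17.3 to 19.9 CPM in the other 4 WT mice. The gap was 0.737 of the group's range, above Dixon's critical value of 0.71 for 5 mice. Of the 40 members checked in WT 1 showed such a gap, and chance alone gives about 1 in 20 groups. The neighbouring, nearly identical Acot1 was also lowest in that mouse, at 22.2 CPM.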

How the results depend on the processing

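Of 40 members, 33 to 36 were called lower with PBS than in WT when each mouse was left out in turn (34.9 to 36.9% of all genes), and 29 to 34 lower with RGLS4326 than in WT (29.9 to 33.5%). In these fits 0 members were called higher than in WT, and 0 lower with RGLS4326 than with PBS. With a mouse left out, the count higher with RGLS4326 than with PBS ranged from 0 to 19 (2.43 to 14.5% of all genes). It was 2 with a log2 fold change over 0.5 required (0.935%), 6 with only the 2 groups compared in the fit (5.25%), and 0 in index series 1, 2 or 3 alone (0% each). Lower with RGLS4326 than in WT were 14 with the size required (11.3%) and 1 in index series 2 alone (0.632%). With each mouse left out, members falling with Lcn2 ranged from 17 to 24 in PBS mice (15.3 to 19.9% of all genes) and from 21 to 28 in RGLS4326 mice (12 to 18.7%); with values centred on index series they were 26 and 27. Fewer mice enter the fits of single series; the cause of the other shifts was not tested. With 8mers only, 3 members had a miR-17 seed match (7.5%, against 4.29% of genes). With up to 2 mismatches 6 had the direct repeat (17.1%, against 3.82%), and with up to 1 mismatch 8 had TNAAGGTCA (22.9%, against 17.5%). No member that was called reversed its direction in any alternative.

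The mice share replicate numbers between groups, but the labels do not pair them, and same-numbered PBS and RGLS4326 mice did not deviate together (mean r = -0.05 over 12 pairs, from -0.41 to 0.42). With a replicate block, 0 members and 1.32% of all genes were called higher with RGLS4326 than with PBS, with 18 members at an unadjusted p under 0.05, and 36 members and 36% of all genes were called lower with PBS than in WT.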
